A study of Arabidopsis thaliana with 24 samples.

Results

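The 9 genes described here encode the CBF, DDF and DREB2 transcription factors of Arabidopsis thaliana: CBF1 (AT4G25490), CBF2 (AT4G25470), CBF3 (AT4G25480, also DREB1A), CBF4 (AT5G51990), DDF1 (AT1G12610), DDF2 (AT1G63030), DREB2A (AT5G05410), DREB2B (AT3G11020) and DREB2C (AT2G40340). They were taken from the gene table by these locus names and are 9 of 32833 genes listed, of which 28056 had a read in any library. All 9 had reads in at least 1 library. In the salt set all 9 had enough reads to be tested, and in the heat set only CBF3, DREB2A, DREB2B and DREB2C did.

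RNA was sequenced from whole 9-day-old seedlings of the exa1-1 mutant (exa1) and of the wild type Col-0 (WT), with strand-specific libraries. EXA1 encodes a GYF-domain protein linked to the control of translation. The 8 groups, each of 3 libraries, were exa1 and WT with 200 mM NaCl, exa1 and WT on 1/2 MS medium (MS), exa1 and WT at 39 °C, and exa1 and WT at 23 °C, every treatment lasting 60 min. All seedlings were grown on 1/2 MS with sucrose, the mutant was represented by 1 allele, and each extract was made from a weighed amount of pooled seedlings. The series text gives 3 independent biological replicates without saying how the cultures were kept apart, and the p-values therefore cover only how these samples vary, which may be technical. The NaCl and MS libraries are called the salt set and the 39 °C and 23 °C libraries the heat set. The series text describes MS and 23 °C alike as normal conditions, and the labels do not say whether both sets were grown together.

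The libraries held 17600922 to 21557382 reads assigned to genes. EXA1 itself had 143 to 342 reads in exa1 libraries and 1488 to 3111 in WT libraries, so the genotype labels held in all 24 libraries. The 6 shoot and 7 root markers were all detected in every group of these whole seedlings. Summed over 6 shoot markers, the level was 5252 to 5312 CPM, reads scaled to library totals, in exa1 on MS and 6506 to 6721 CPM in WT on MS. Summed over 7 root markers it was 144 to 145 CPM in exa1 on MS and 99.4 to 102 CPM in WT on MS. With NaCl, the shoot sum was 6064 to 6286 CPM in exa1 and 9544 to 9836 CPM in WT, and the root sum 47.4 to 54.7 CPM in exa1 and 61.4 to 66.1 CPM in WT. In whole seedlings, fewer cells of a type and less RNA per cell cannot be told apart, and the part that tissue makeup plays in the differences described here was not tested.

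CBF and DREB2 proteins are AP2/ERF-type activators that bind the dehydration-responsive element, with the core CCGAC, in the promoters of protective genes. CBF1, CBF2 and CBF3 are best known for their rapid and transient induction by cold and for the freezing tolerance that their target genes give. CBF4 and the DDF genes are known to respond to water deficit or salt rather than to cold. DREB2 proteins act in drought, salt and heat, and DREB2A is kept at a low level in unstressed cells by the ubiquitin ligases DRIP1 and DRIP2.

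The promoters shown are those of DDF1 and DDF2, which were expressed with NaCl and near 0 otherwise, and of DREB2A and DREB2C, which had the largest heat responses of the DREB2 genes. The promoter of CBF2, which like CBF1 differed between genotypes, is shown too. Each sequence is the 250 bases before the annotated gene start, from the TAIR10.1 assembly and annotation of RefSeq, in the direction of the gene. Capitals mark 4 motifs searched on both strands: a heat shock element as GAANNTTC or TTCNNGAA, the abscisic acid response core ACGTG, the CAMTA core CGCGT and the evening element AAATATCT.
CBF2 (chr4:13016236-13016485, minus strand): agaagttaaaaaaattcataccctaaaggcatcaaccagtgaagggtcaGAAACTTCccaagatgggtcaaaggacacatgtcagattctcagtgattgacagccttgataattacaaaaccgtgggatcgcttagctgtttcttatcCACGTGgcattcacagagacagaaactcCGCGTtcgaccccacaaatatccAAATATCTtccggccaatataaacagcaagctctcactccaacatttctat
DDF1 (chr1:4291018-4291267, minus strand): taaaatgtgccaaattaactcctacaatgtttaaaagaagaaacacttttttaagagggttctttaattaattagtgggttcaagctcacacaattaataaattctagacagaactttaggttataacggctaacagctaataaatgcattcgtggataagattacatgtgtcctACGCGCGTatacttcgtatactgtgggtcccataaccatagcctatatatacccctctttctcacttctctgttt
DDF2 (chr1:23368417-23368666, minus strand): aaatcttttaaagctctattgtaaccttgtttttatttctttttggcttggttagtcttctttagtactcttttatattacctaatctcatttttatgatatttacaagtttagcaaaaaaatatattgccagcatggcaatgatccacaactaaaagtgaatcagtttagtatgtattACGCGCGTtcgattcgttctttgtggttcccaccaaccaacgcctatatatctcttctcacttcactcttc
DREB2A (chr5:1601955-1602204, plus strand): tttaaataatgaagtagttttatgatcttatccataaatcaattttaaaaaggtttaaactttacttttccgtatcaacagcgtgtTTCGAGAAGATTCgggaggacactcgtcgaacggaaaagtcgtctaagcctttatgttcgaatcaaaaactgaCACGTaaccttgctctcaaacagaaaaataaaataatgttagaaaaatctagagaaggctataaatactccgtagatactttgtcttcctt
DREB2C (chr2:16850495-16850744, minus strand): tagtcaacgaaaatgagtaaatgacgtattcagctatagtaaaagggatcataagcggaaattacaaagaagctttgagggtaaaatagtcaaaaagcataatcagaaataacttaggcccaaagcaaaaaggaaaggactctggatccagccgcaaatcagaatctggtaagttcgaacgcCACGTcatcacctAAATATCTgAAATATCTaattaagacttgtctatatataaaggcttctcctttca

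DREB2A held 2 overlapping heat shock elements, the first starting 164 bases before the gene start. DDF1 (chr1:4289883-4291017) and DDF2 (chr1:23367394-23368416), both on the minus strand of chromosome 1, each held a pair of overlapping CAMTA cores on opposite strands, starting 75 bases before the gene start in DDF1 and 71 in DDF2. CBF2 held all 4 motifs, its abscisic acid core in overlapping copies on both strands, and DREB2C held the evening element 2 times and the abscisic acid core 1 time. The promoter of CBF1, which differed between genotypes too and is not shown, held only the evening element. Among the 9 promoters, the heat shock element was in 3 (DREB2A, CBF2 and CBF3), against 16.15% of 27443 protein-coding promoters of the same length. The abscisic acid core was in 5, against 22.91% of all promoters, the CAMTA core in 3, against 6.87%, and the evening element in 5, against 4.79%. The core CCGAC was in none of the 9, against 11.97% of all promoters. A match is a string of letters and not a shown binding site, and the absence of one in this window says nothing of the factor.

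CBF2, CBF3 and CBF1 lie in this order within 7747 bases of chromosome 4, at chr4:13015250-13016235, chr4:13018010-13019400 and chr4:13021780-13022996 (TAIR10.1), all on the minus strand and each a single exon. Their coding sequences are 85.04 to 86.7% identical, which matters because reads from one could be counted to another. The 60 coding bases in which they differ least start at coding base 112 in CBF1 and 121 in CBF2 and CBF3, with capitals at the 3 positions that differ.
CBF1: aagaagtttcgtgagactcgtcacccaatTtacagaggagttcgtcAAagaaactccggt
CBF2: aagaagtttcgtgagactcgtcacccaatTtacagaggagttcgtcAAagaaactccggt
CBF3: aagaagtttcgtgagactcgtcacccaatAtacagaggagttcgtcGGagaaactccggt

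No stretch of 75 bases of CBF1, CBF2 or CBF3 occurred elsewhere in the nuclear genome, so a read of 150 bases that matched without error had a single place. DDF1 and DDF2 were 68.57% identical and DREB2A and DREB2B 62.48%. DREB2A, DREB2B and CBF3 each overlap a gene on the other strand. DREB2B (chr3:3455355-3457342, plus strand) shares 1086 bases with TBL32 (AT3G11030), DREB2A (chr5:1602205-1604112, plus strand) shares 73 bases with AT5G05420, and CBF3 shares 29 bases with the non-coding AT4G07385, which had no reads. How the counting treated strand is not stated in the labels. Of 610 genes whose exons all lie inside an exon of a well-expressed gene on the other strand, 580 had reads. A count that ignored strand and dropped ambiguous reads would leave such genes at 0.

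With NaCl every one of the 9 genes was higher than on MS in both genotypes, and no library with NaCl overlapped a library on MS of its genotype. The share of all genes without such overlap was not counted. In either direction, 75% of all genes tested were called in exa1 and 74.4% in WT. All 9 passed the test in exa1, where 37.1% of all genes tested were called higher, and all 9 in WT, where 36.9% were. CBF3, CBF4, DDF1 and DDF2 had enough reads to be tested only through their NaCl libraries, so the calls of these 4 genes, the count of 9 and the medians given next are a description and no support. The other 5 genes, CBF1, CBF2, DREB2A, DREB2B and DREB2C, were called in both genotypes. The median response was 4.27 over the 9 genes and -0.01 over all genes tested in exa1, and 3.83 and -0.01 in WT; the first was the same with DDF2 set at its lower bound. Tests here and below are edgeR's quasi-likelihood tests on read counts with Benjamini-Hochberg adjustment over all genes, a call is an adjusted p under 0.05, and errors of log2 fold changes are standard errors.

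The levels below are FPKM, the authors' values scaled by gene length and library size, which allows levels of genes of unequal length to be set side by side. DDF1, which activates a gibberellin-degrading enzyme gene and dwarfs plants when overexpressed, reached 21.3, 19.0 and 17.8 FPKM with NaCl in exa1, against 0.19, 0.18 and 0.13 FPKM on MS in exa1. In WT it reached 25.3, 26.2 and 24.8 FPKM with NaCl, against 0.55, 0.12 and 0.35 FPKM on MS. It was the most strongly expressed of the 6 CBF and DDF genes with NaCl in every library of both genotypes. The log2 fold change was 6.96 ± 0.45 in exa1 (edgeR, adjusted p = 2.02e-78) and 6.37 ± 0.32 in WT (adjusted p = 4.71e-84).

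DDF2, the closest relative of DDF1, had 63, 41 and 41 reads with NaCl in exa1 and none in 3 libraries on MS. Against a floor of 3 reads over the group, its level was at least 54.6-fold higher with NaCl in exa1. In WT it had 39, 52 and 57 reads with NaCl, against 2, 0 and 1 on MS, a ratio of 61.7 with a counting interval of 20.7 to 302.5. CBF4 had 66, 61 and 49 reads with NaCl in exa1, against 1, 2 and 0 on MS, a ratio of 66.3 with a counting interval of 22.3 to 324.4. In WT CBF4 had 46, 31 and 29 reads with NaCl, against 1, 3 and 0 on MS, with a log2 fold change of 4.87 ± 0.86 (edgeR, adjusted p = 4.41e-16). The intervals are exact at 95%, and they and the floors cover counting error only. Both genes were thus near the limit of detection on MS in either genotype.

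CBF1, one of the genes of the cold cluster, had 216, 150 and 176 reads with NaCl in exa1, against 2, 2 and 10 on MS. In WT it had 141, 139 and 124 reads with NaCl, against 16, 17 and 13 on MS. Its log2 response was 5.38 ± 0.44 in exa1 and 3.40 ± 0.27 in WT. CBF2 had 83, 71 and 64 reads with NaCl in exa1, against 10, 5 and 2 on MS, and 71, 74 and 76 reads with NaCl in WT, against 19, 26 and 12 on MS. Its log2 response was 3.79 ± 0.42 in exa1 and 2.22 ± 0.28 in WT. With NaCl the genotypes' libraries of CBF1 and CBF2 overlapped, while on MS each exa1 library lay below each WT library. CBF3 had 48, 42 and 39 reads with NaCl in exa1, against 1, 5 and 1 on MS, and 44, 53 and 59 reads with NaCl in WT, against 2, 6 and 0 on MS. Its log2 response was 4.27 ± 0.66 in exa1 and 4.49 ± 0.62 in WT.

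Several of these responses rested on which MS library was present. In exa1, the log2 response of CBF1 was 6.54 without exa1_MS replicate 3, that of CBF2 4.50 without exa1_MS replicate 1, and those of CBF3 and CBF4 5.37 and 6.66 without exa1_MS replicate 2. In WT, those of CBF3 and CBF4 were 5.74 and 6.03 without WT_MS replicate 2, and that of DDF2 6.52 without WT_MS replicate 1. All 9 genes were called in both genotypes under each of 14 alternatives.

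The DREB2 genes were expressed before the stress and responded to salt in the order DREB2A, DREB2B, DREB2C. DREB2A was at 88.3, 89.5 and 87.3 FPKM with NaCl in exa1, against 6.80, 6.99 and 7.60 FPKM on MS in exa1. In WT it was at 100, 103 and 99.8 FPKM with NaCl, against 7.59, 8.57 and 7.42 FPKM on MS. Its log2 response was 3.78 ± 0.06 in exa1 and 3.83 ± 0.06 in WT. DREB2B, the closest relative of DREB2A, was at 11.4, 10.4 and 11.3 FPKM with NaCl in exa1, against 2.88, 3.13 and 2.94 FPKM on MS, and responded by 2.04 ± 0.13 in exa1 and 1.94 ± 0.13 in WT on the log2 scale. Its overlapping partner TBL32 differed by -0.04 in exa1 (adjusted p = 0.602) and -0.14 in WT (edgeR, adjusted p = 0.0477). DREB2C, known as an activator of the heat factor gene HSFA3, was at 14.7, 15.5 and 14.6 FPKM with NaCl in exa1, against 7.09, 6.32 and 7.58 FPKM on MS. Its log2 response was the smallest of the 9 genes, 1.25 ± 0.08 in exa1 and 1.37 ± 0.08 in WT.

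**Figure D1:**
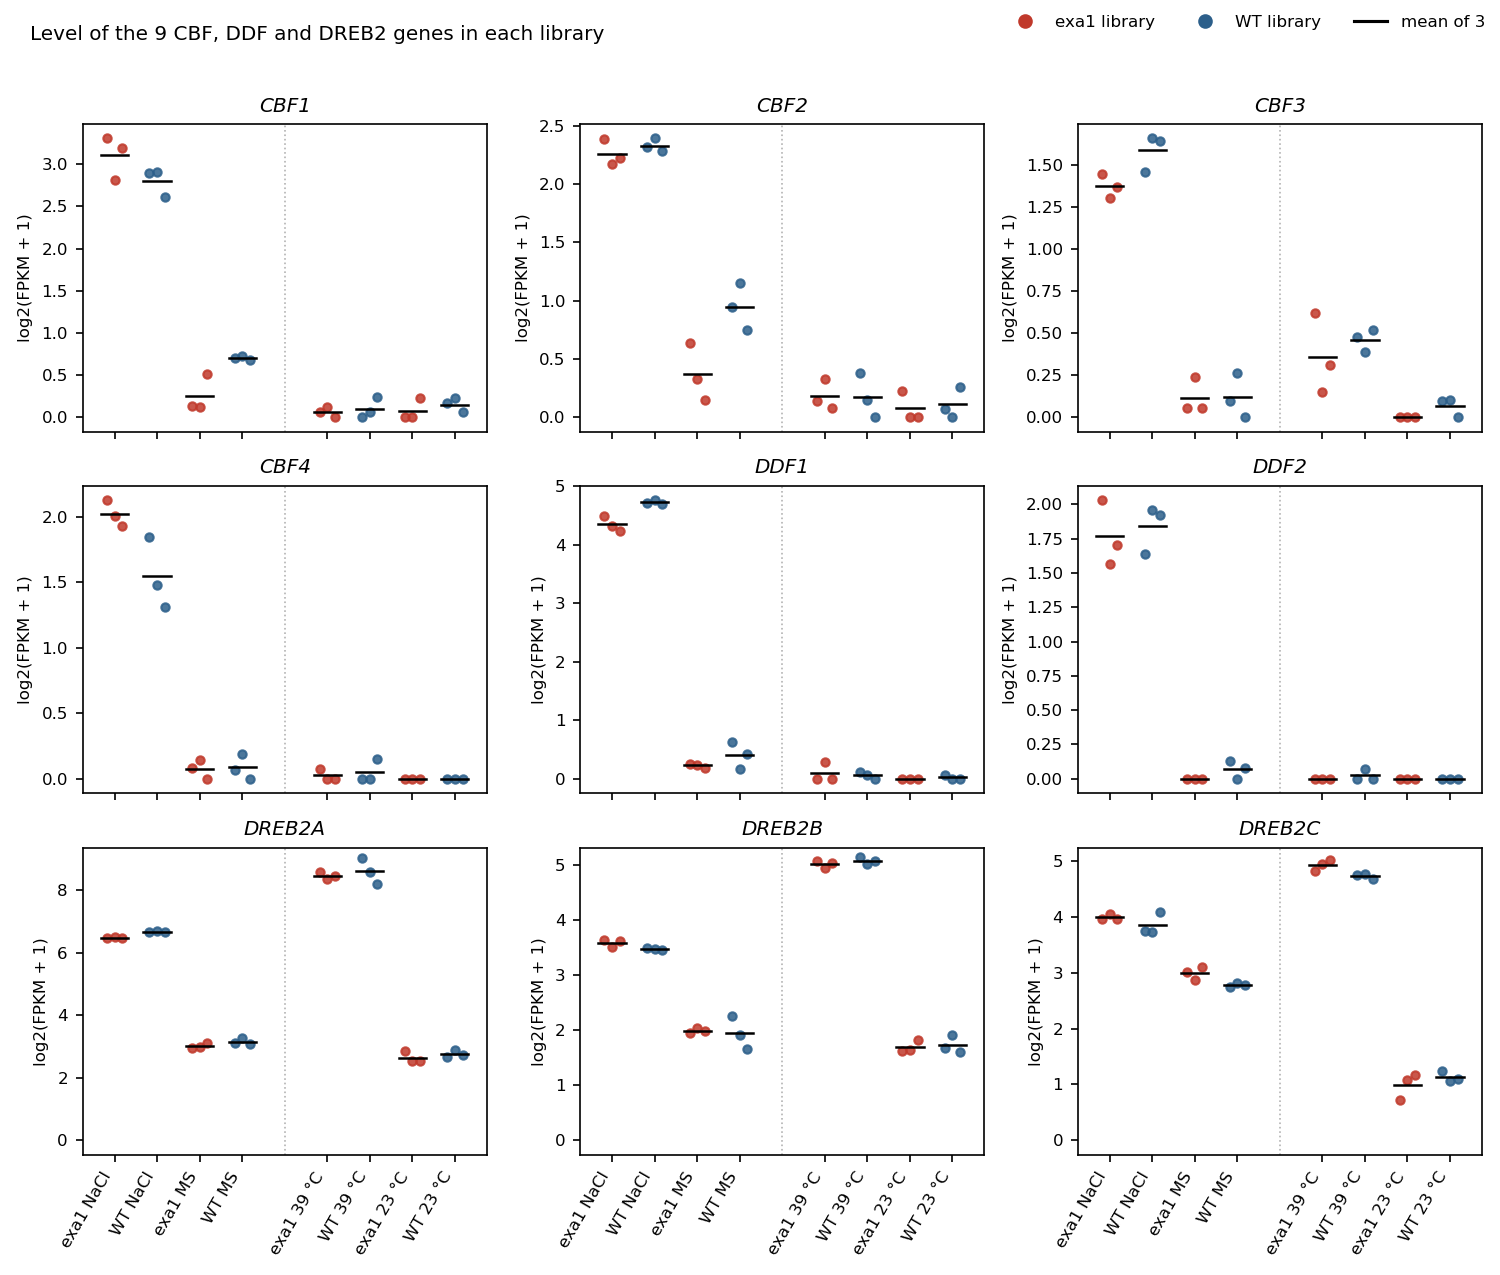
Level of each gene in each library as log2(FPKM + 1); red points are exa1 libraries, blue points WT libraries and black lines the mean of 3, with the salt set left and the heat set right of the dotted line. The 6 CBF and DDF genes are highest with NaCl and, apart from CBF3 at 39 °C, near 0 in the heat set, while the DREB2 genes are highest at 39 °C.

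At 39 °C the DREB2 genes were far above their level at 23 °C in both genotypes, while the CBF and DDF genes were at or near 0 in both conditions. The 3 DREB2 genes were called higher in exa1, where 36.3% of all genes tested were, and in WT, where 36.6% were. DREB2A reached 381, 329 and 353 FPKM at 39 °C in exa1, against 6.27, 4.84 and 4.80 FPKM at 23 °C in exa1. In WT it reached 529, 381 and 296 FPKM at 39 °C, against 5.37, 6.43 and 5.62 FPKM at 23 °C. The log2 fold change was 6.95 ± 0.20 in exa1 and 7.03 ± 0.19 in WT. These were the highest levels of any of the 9 genes, above those with NaCl in every library.

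DREB2B was at 32.6, 30.0 and 31.9 FPKM at 39 °C in exa1, against 2.09, 2.12 and 2.52 FPKM at 23 °C. In WT it was at 34.3, 31.3 and 32.5 FPKM at 39 °C, against 2.19, 2.76 and 2.04 FPKM at 23 °C. The log2 responses were 4.69 ± 0.13 in exa1 and 4.72 ± 0.12 in WT. TBL32 on the other strand was higher at 39 °C too, by 1.49 in exa1 (edgeR, adjusted p = 2.17e-10) and 0.96 in WT (adjusted p = 2.34e-07). DREB2C was at 27.3, 29.7 and 31.6 FPKM at 39 °C in exa1, against 0.65, 1.12 and 1.24 FPKM at 23 °C, and at 25.9, 26.2 and 24.5 FPKM at 39 °C in WT, against 1.36, 1.1 and 1.14 FPKM at 23 °C. Its log2 responses were 5.75 ± 0.16 in exa1 and 5.31 ± 0.15 in WT, and DREB2C, with the smallest salt response, had a larger heat response than DREB2B.

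CBF3 was the only gene of the cold cluster to pass the filter in the heat set, and it did so only through its 39 °C libraries, so its higher level there is a description. It had 15, 3 and 6 reads at 39 °C in exa1 and none at 23 °C, which is at least 14.4-fold higher, although 15 of the 24 reads were in 1 library and the fitted log2 response of 6.54 was 5.78 without exa1_39C replicate 1. In WT it had 11, 8 and 11 reads at 39 °C, against 2, 2 and 0 at 23 °C, with a log2 fold change of 3.75 ± 1.00 (edgeR, adjusted p = 0.00029). At these counts its level at 39 °C was 0.29 FPKM in exa1 and 0.38 FPKM in WT, below its 1.60 FPKM with NaCl in exa1 and 2.02 FPKM with NaCl in WT. CBF1 and CBF2 had 0 to 6 reads in each library of the heat set, DDF1 0 to 5, and CBF4 and DDF2 0 to 2. These 5 genes were too low to be tested. By counting error alone, CBF2 was higher at 39 °C than at 23 °C in exa1 by a ratio of 4.81, with an interval of 1.15 to 28.1, from 8 reads against 3. Of these 8 reads, 5 were in 1 library, and WT had 8 reads at 39 °C and 5 at 23 °C. Over all genes, exa1 libraries at 39 °C differed by more than counting error, with a chi-square per degree of freedom of 6.51 to 15.6. The interval leaves out this spread, so no difference is concluded from it. DDF1 had 0, 5 and 0 reads at 39 °C in exa1, all in 1 library, and none at 23 °C. The heat shock element of CBF2 printed above stood in a promoter whose gene had 8 reads over the exa1 libraries at 39 °C and 8 over those of WT.

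The scale of the heat comparison depends on how libraries are normalised. The median log2 change of all genes tested was -0.09 in exa1 and -0.06 in WT with TMM scaling, and -0.97 in both genotypes when libraries were scaled by their totals alone. The share of called genes that were higher was 47.7% in exa1 and 48.7% in WT with TMM scaling, and 16% and 14.4% with library totals. FPKM are scaled by totals as well. For NaCl against MS, the share was 49.5% in exa1 and 49.6% in WT with TMM scaling, and 38% and 38.1% with library totals, with a median of -0.16 in both genotypes. The responses of the members to salt and of the 4 members tested to heat were called under both scalings and exceeded these shifts.

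**Figure D2:**
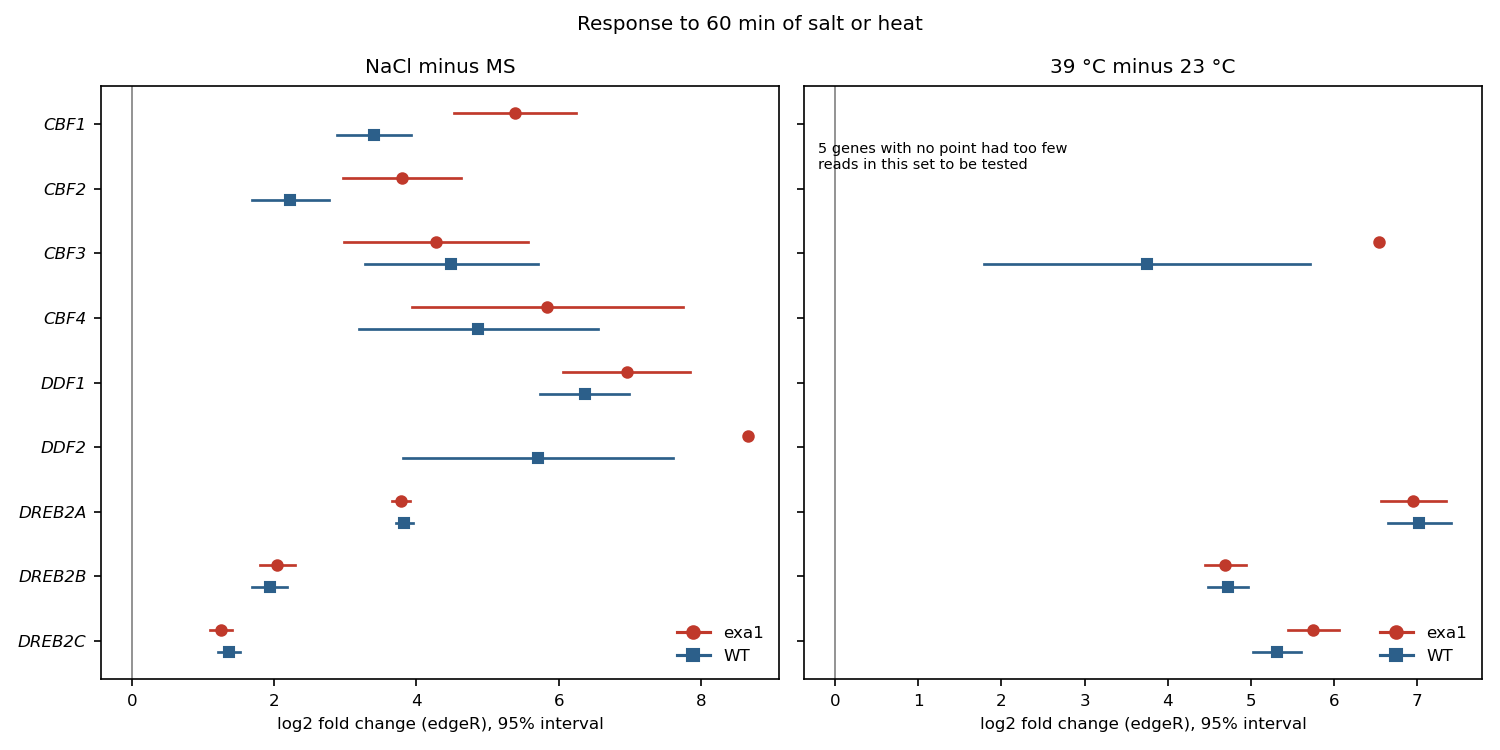
Log2 fold change of each gene with its 95% interval in exa1 (red circles) and WT (blue squares), for NaCl against MS on the left and 39 °C against 23 °C on the right. With NaCl the intervals of the genotypes do not overlap for CBF1 and CBF2, and the 3 DREB2 genes have larger responses to heat than to salt. Points of exa1 without an interval (DDF2 with NaCl, CBF3 at 39 °C) are fitted against 0 reads, and the interaction of DDF2 with NaCl was not called (edgeR, adjusted p = 0.241).

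Unstressed on MS, CBF1 and CBF2 were lower in exa1 than in WT, and DREB2C was slightly higher. The other 6 genes did not pass the test. In all 3 of 9 genes were called, against 29.3% of all genes tested. CBF1 totalled 14 reads over the exa1 libraries and 46 over the WT libraries and was lower by -1.65 ± 0.49 on the log2 scale (edgeR, adjusted p = 0.00187). CBF2 totalled 17 reads over the exa1 libraries and 57 over the WT libraries and was lower by -1.67 ± 0.46 (adjusted p = 0.000794). Both calls held under all 14 alternatives, with log2 differences of -2.81 for CBF1 without exa1_MS replicate 3 and -2.39 for CBF2 without exa1_MS replicate 1. With limma on log2(FPKM + 1), which understates changes of low genes, they were -0.45 for CBF1 and -0.58 for CBF2, both called.

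DREB2C was at 7.09, 6.32 and 7.58 FPKM in exa1 on MS and at 5.72, 6.02 and 5.87 FPKM in WT on MS, a log2 difference of 0.23 ± 0.09 (edgeR, adjusted p = 0.035). Its call was lost without exa1_MS replicate 1 or 3 (adjusted p = 0.0894 and 0.237), without WT_MS replicate 1, 2 or 3 (0.104, 0.0529 and 0.0702), with DESeq2 (0.105), with limma (0.0768) and with all 24 libraries in 1 fit (0.183). DDF1 had 4, 4 and 3 reads in exa1 and 13, 3 and 7 in WT, a difference of -0.996 ± 0.548 (edgeR, adjusted p = 0.142) that passed only without WT_MS replicate 2, with -1.42 (adjusted p = 0.0337). The log2 difference of DREB2A was -0.17, with an interval of -0.32 to -0.01 and an adjusted p of 0.1001 (edgeR). For CBF3 and CBF4, with 0 to 6 reads per library, the intervals ran from -1.84 to 1.56 and from -2.81 to 2.15, so that differences of the size seen in CBF1 could not be detected.

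With NaCl, DREB2A and DDF1 were lower in exa1, and CBF1 and CBF2 showed no call. In all 2 of 9 genes were called, against 35.8% of all genes tested. DDF1 was lower in exa1 by -0.41 ± 0.09 (edgeR, adjusted p = 2.88e-05), with each exa1 library below each WT library. DREB2A was lower by -0.21 ± 0.04 (adjusted p = 2.1e-07), also without overlap, a call that was lost with all 24 libraries in 1 fit (adjusted p = 0.317).

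CBF1 differed by 0.34 ± 0.15 with NaCl (edgeR, adjusted p = 0.0626) and passed with only the libraries compared (0.0432), with library totals (0.0463) and without exa1_NaCl replicate 2 (0.49 on the log2 scale, adjusted p = 0.0114). CBF4 differed by 0.64 ± 0.27 (edgeR, adjusted p = 0.0541). Its exa1 libraries, at 3.37, 3.02 and 2.81 FPKM, lay above its WT libraries, at 2.59, 1.79 and 1.48 FPKM. It passed with only the libraries compared (adjusted p = 0.0325), with library totals (0.0451), with limma (0.00749) and without WT_NaCl replicate 1 (0.0276). DREB2C differed by 0.11 and passed without WT_NaCl replicate 3 only (0.24, edgeR adjusted p = 0.0108). CBF2, CBF3, DDF2 and DREB2B had log2 differences from -0.36 to 0.11, none of them called.

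The salt response of CBF1 and CBF2 was larger in exa1 than in WT by the test of the difference itself, the interaction of genotype and NaCl. In all 2 of 9 genes were called, against 21.2% of all genes tested. The difference between the log2 responses was 1.99 ± 0.51 for CBF1 (edgeR, adjusted p = 0.000417) and 1.57 ± 0.50 for CBF2 (adjusted p = 0.00837). The genotypes differed on MS, at 2 to 26 reads per library, and with NaCl they did not pass the test. CBF1 was called under all 19 alternatives, with a difference of 3.13 without exa1_MS replicate 3 and 1.60 without exa1_MS replicate 2. With limma on log2(FPKM + 1), a scale that understates changes of low genes, it was 0.75 (adjusted p = 0.0126). CBF2 had 2.27 without exa1_MS replicate 1, and its call was lost without exa1_MS replicate 3 (1.15, adjusted p = 0.0942), without WT_MS replicate 2 (1.33, 0.0592), with limma on log2(FPKM + 1) (0.51, 0.0712) and with all 24 libraries in 1 fit (1.54, 0.131). For DREB2A, the interval of the difference was -0.21 to 0.12, for DREB2B -0.25 to 0.45 and for DREB2C -0.34 to 0.10. For CBF3 it was -1.999 to 1.57 and for CBF4 -1.57 to 3.51. For DDF1 it was -0.50 to 1.68.

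Summed over CBF1, CBF2 and CBF3, exa1 had 347, 263 and 279 reads with NaCl and 13, 12 and 13 reads on MS. WT had 256, 266 and 259 reads with NaCl and 37, 49 and 25 reads on MS. The sum was lower in every exa1 library than in every WT library on MS, while with NaCl the ranges overlapped.

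At 23 °C and 39 °C none of the 4 genes tested was called between genotypes by edgeR, none had an unadjusted p under 0.05, and DESeq2 and limma called none of them. The shoot marker sum was 15387 to 17171 CPM in exa1 and 19566 to 21786 CPM in WT at 39 °C, and 13284 to 15642 CPM in exa1 and 13653 to 15224 CPM in WT at 23 °C. The root marker sum was 21.1 to 26.7 CPM in exa1 and 29.2 to 37.9 CPM in WT at 39 °C, and 56.9 to 62.9 CPM in exa1 and 68.2 to 92.7 CPM in WT at 23 °C. Over all genes tested, 7.54% were called at 23 °C and 15.5% at 39 °C. DREB2A differed by -0.20 ± 0.17 at 39 °C, where its WT libraries spread from 296 to 529 FPKM and its exa1 libraries from 329 to 381 FPKM. Its difference was 0.08 without WT_39C replicate 1 and -0.38 without WT_39C replicate 3, where it passed (edgeR, adjusted p = 0.0318). DREB2C had no overlap at 39 °C, with each exa1 library above each WT library, and a difference of 0.19 ± 0.10 (edgeR, adjusted p = 0.225). The interaction of genotype and 39 °C called none of the 4 genes, against 1.64% of all genes tested. DESeq2 and limma called none either, and none had an unadjusted p under 0.05. The interaction was 0.44 ± 0.22 for DREB2C (edgeR, unadjusted p = 0.0557, adjusted p = 0.309), and -0.08 for DREB2A, with an interval of -0.62 to 0.47. Of the genes called in that interaction, 51.9% were higher in exa1 with TMM scaling and 63.1% with RLE size factors.

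**Figure D3:**
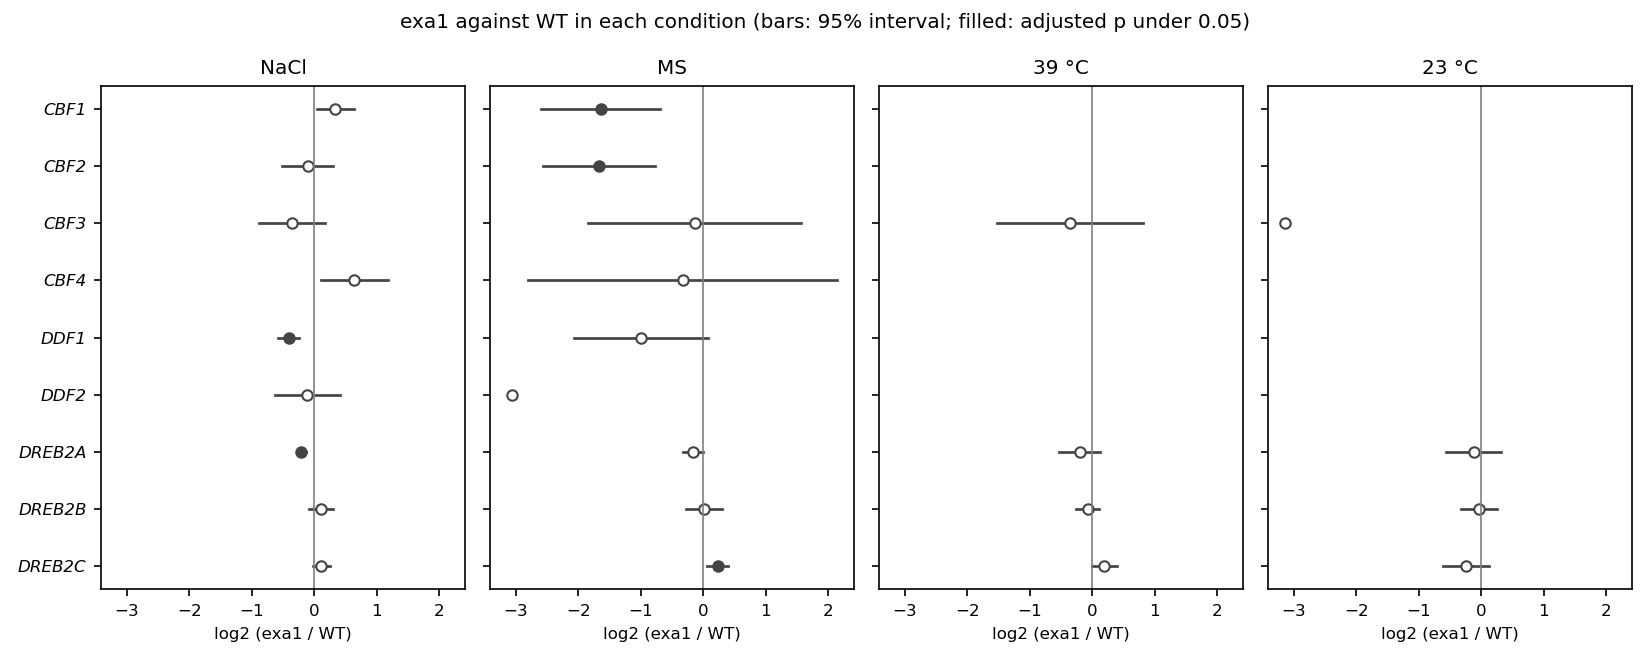
Log2 difference between exa1 and WT for each gene in the 4 conditions, with 95% intervals and filled points for an adjusted p under 0.05. CBF1 and CBF2 are called below 0 on MS and are not called with NaCl, and genes without a point had too few reads in that set to be tested. Points without a bar (DDF2 on MS, CBF3 at 23 °C) are fitted with 0 reads in exa1.

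Both unstressed groups, 23 °C and MS, were also set side by side, and since the sets may have been handled apart, condition and set cannot be told apart. CBF1, CBF2 and DREB2C were lower at 23 °C than on MS in WT, and DREB2C was in exa1. Of 5 genes tested, 1 was called lower in exa1, against 33.8% of all genes tested, and 3 in WT, against 33.4%. CBF1 and CBF2 had enough reads to be tested in this comparison only through the WT libraries on MS. Their calls in WT and the count of 3 are therefore a description and no support. DREB2C, at 0.65 to 1.24 FPKM at 23 °C and 6.32 to 7.58 FPKM on MS in exa1, differed by -2.53 ± 0.17 (edgeR, adjusted p = 1.26e-14), and by -2.06 ± 0.16 in WT (adjusted p = 7.2e-13). In WT CBF1 had 3, 4 and 1 reads at 23 °C, against 16, 17 and 13 on MS, a log2 difference of -2.27 ± 0.78 (edgeR, adjusted p = 0.00424). In WT CBF2 had 1, 0 and 4 reads at 23 °C, against 19, 26 and 12 on MS, a difference of -3.21 ± 0.93 (adjusted p = 0.000286), and -4.71 without WT_23C replicate 3. In exa1, where both genes were already low on MS, CBF2 differed by -2.12 ± 1.22 (edgeR, adjusted p = 0.0644) and CBF1 by -1.46 ± 1.101 (adjusted p = 0.188). In exa1 CBF2 passed without exa1_MS replicate 3 (-2.54, edgeR adjusted p = 0.0304), with library totals (-2.36, 0.0349) and with all 24 libraries in 1 fit (-2.10, 0.0499). It also passed without exa1_23C replicate 1 (-5.47, edgeR adjusted p = 0.0118). That library held all 3 reads of CBF2 at 23 °C in exa1, so this value is fitted against 0 reads. In exa1 CBF1 differed by -5.185 without exa1_23C replicate 3 (edgeR, adjusted p = 0.0167), where it passed, and by -0.32 without exa1_MS replicate 3 (adjusted p = 0.832). The first of these is fitted against 0 reads, since exa1_23C replicate 3 held all 4 reads of CBF1 at 23 °C in exa1. DREB2A differed by -0.17 in exa1 and -0.22 in WT, and passed in exa1 without exa1_23C replicate 1 (-0.30, adjusted p = 0.04) and in WT without WT_23C replicate 2 (-0.29, adjusted p = 0.0489). It also passed with limma on log2(FPKM + 1), at -0.37 in exa1 (adjusted p = 0.00336) and -0.38 in WT (adjusted p = 0.00304), and with library totals, at -0.43 in exa1 (edgeR, adjusted p = 0.00229) and -0.44 in WT (adjusted p = 0.00142). The share of called genes that were higher at 23 °C was 49.9% in exa1 and 50.2% in WT with TMM scaling, and 31.5% and 33.5% with library totals, which put the median of all genes at -0.28 and -0.24.

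Levels of the 9 genes across groups followed a pair of orders. All 6 CBF and DDF genes were highest with NaCl in both genotypes, with no overlap with any other condition. CBF1 and CBF2 came next on MS in WT, without overlap with exa1 on MS, and CBF3 came next at 39 °C, where both genotypes overlapped. DREB2A, DREB2B and DREB2C were by their means highest at 39 °C, then with NaCl, then on MS, then at 23 °C in both genotypes, with overlap between MS and 23 °C for DREB2B. In CPM scaled by TMM over the 24 libraries, DREB2A was at 7.21 to 9.34 at 23 °C and 8.49 to 9.50 on MS in exa1. In WT it was at 8.11 to 9.61 CPM at 23 °C and 9.41 to 10.9 CPM on MS. The MS and 23 °C groups of DREB2A thus overlapped with TMM scaling. They were apart in FPKM, which are scaled by library totals. For DREB2A, the means were 354 ± 25.6 FPKM in exa1 and 402 ± 118 FPKM in WT at 39 °C (SD, n = 3 each), whose ranges overlapped. They were 88.4 ± 1.07 FPKM in exa1 and 101 ± 1.82 FPKM in WT with NaCl, which did not overlap. Over 24 libraries, the Pearson correlation of log2 CPM was 0.98 between DDF1 and DDF2, 0.94 between CBF1 and DDF1, and 0.99 between DREB2A and DREB2B. It was 0.14 between CBF1 and DREB2A. CBF3 stood between, at 0.68 with CBF1 and 0.75 with DREB2A. These values describe groups of libraries that share a treatment, and genes without reads in a set add points of equal value.

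Upstream of the CBF genes, regulators known from other studies were taken as a list of 22, of which 21 were tested in each set. With NaCl 16 were higher and 2 lower than on MS in exa1, with a median of 0.78 against -0.01 for all genes, and the counts were the same in WT, with a median of 0.70. Over all genes tested, 8079 of 21759 were higher and 8239 lower in exa1. MYB15, a repressor of CBF genes, differed by 4.36 ± 0.09 in exa1 and 3.90 ± 0.07 in WT. ZAT12, a zinc finger factor that lowers CBF expression in the cold, differed by 3.10 ± 0.08 in exa1 and 2.58 ± 0.07 in WT. CCA1, a morning clock factor that activates CBF genes, differed by 5.03 ± 0.46 in exa1 and 3.34 ± 0.33 in WT. It had enough reads to be tested in the salt set only through its NaCl libraries, so these calls and its place in the count of 16 are a description.

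Between the genotypes on MS, 10 of the 21 regulators were lower in exa1 and none was higher, with a median of -0.17, while 2895 of all 21759 genes were higher and 3490 lower. The largest differences were those of the light-signalling factors PIF4, at -1.14 ± 0.09 (edgeR, adjusted p = 2.35e-25), and PIF3, at -0.63 ± 0.04 (adjusted p = 3.99e-32), both known to repress CBF genes, and of MYB15, at -0.80 ± 0.11 (adjusted p = 1.62e-10), and ZAT12, at -0.79 ± 0.09 (adjusted p = 6.39e-14). These 4 repressors were lower in exa1 in the same libraries in which CBF1 and CBF2 were, and their part in that difference was not tested. With NaCl 4 regulators were higher and 8 lower in exa1, against 4052 higher and 3742 lower of all 21759 genes. In the interaction with NaCl 7 were higher and 1 lower, against 2514 higher and 2092 lower of all genes. Among the 7 were CCA1 at 1.69 ± 0.56 (edgeR, adjusted p = 0.0118) and PIF4 at 0.98 ± 0.11 (adjusted p = 2.27e-14). CCA1 was tested in this set only through its NaCl libraries, with means of 0.172 CPM in exa1 and 0.382 CPM in WT on MS. Its call here and its place in the count of 7 are a description. This interaction shares the MS libraries with the comparison on MS.

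At 39 °C, 11 regulators were higher and 7 lower than at 23 °C in exa1, and 12 higher and 6 lower in WT. Of all 21196 genes tested, 7685 were higher and 8411 lower in exa1, and 7752 higher and 8177 lower in WT. The clock gene PRR9 differed by 6.87 ± 0.56 in exa1 and 8.09 ± 0.72 in WT, and CCA1 by 4.13 ± 0.31 in exa1 and 3.92 ± 0.30 in WT. PRR9 had enough reads to be tested in the heat set only through its 39 °C libraries, so its calls and its place in the counts of 11 and 12 are a description. At 23 °C against MS, MYB15 was lower in exa1 by -2.25 ± 0.25 and in WT by -2.49 ± 0.22. CCA1 was higher at 23 °C by 2.48 ± 0.63 in exa1 and 1.39 ± 0.49 in WT, and LHY, its partner in the clock, by 1.56 ± 0.35 in exa1 and 1.35 ± 0.32 in WT. CCA1 had enough reads to be tested in this comparison only through its 23 °C libraries, so its calls are a description. CCA1 and LHY were higher at 23 °C in both genotypes, while CBF1 and CBF2 were called lower in WT only. The part of these clock genes in that fall was not tested. Between genotypes, 4 regulators were lower in exa1 at 23 °C and 7 at 39 °C, and none was higher in either. Of all 21196 genes, 903 were lower and 695 higher at 23 °C, and 1701 lower and 1579 higher at 39 °C.

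Regulators of DREB2 genes or proteins formed a list of 13, all tested. At 39 °C, 10 were higher and 2 lower than at 23 °C in both genotypes, with a median of 1.16 in exa1 and 0.97 in WT. Of all genes tested, 36.3% were higher in exa1 and 36.6% in WT. GRF7, a repressor of DREB2A, was at 0.306 CPM in exa1 and 0.087 CPM in WT at 39 °C, against 1.98 CPM in exa1 and 1.69 CPM in WT at 23 °C. The log2 difference was -2.63 ± 0.49 in exa1 and -4.15 ± 0.83 in WT, at levels near the limit of detection. GRF7 had enough reads to be tested in the heat set only through its 23 °C libraries, so these calls and its place in the count of 2 are a description. HSFA1E, one of the master heat factors that activate DREB2A, differed by 2.43 ± 0.12 in exa1 and 2.49 ± 0.11 in WT, and RCD1, whose protein binds DREB2A, by 1.81 ± 0.19 in exa1 and 1.58 ± 0.19 in WT. With NaCl, 8 were higher and 2 lower in exa1, and 8 higher and 3 lower in WT. Of all genes tested, 37.1% were higher with NaCl in exa1 and 36.9% in WT. Among these regulators HSFA1E led with 2.03 ± 0.09 in exa1 and 1.65 ± 0.09 in WT. Between genotypes, DRIP2, which marks DREB2A for degradation, was higher in exa1 on MS by 0.42 ± 0.08 (edgeR, adjusted p = 1.15e-05) and with NaCl by 0.45 ± 0.09 (adjusted p = 1.79e-05). On MS 2 regulators were higher and 2 lower, with NaCl 1 each way, and none was called at 23 °C. Over all genes, 29.3% were called on MS, 35.8% with NaCl, 7.54% at 23 °C and 15.5% at 39 °C. At 39 °C HSFA1D and HSFA1A were higher in exa1, by 0.49 ± 0.10 and 0.41 ± 0.14, and HSFA1E was lower, by -0.42 ± 0.10 (edgeR, adjusted p = 0.0106).

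Known targets of the CBF proteins were more strongly expressed with NaCl than on MS, 15 of 15 in both genotypes, against 37.1% of all genes in exa1 and 36.9% in WT, with a median of 3.56 in exa1 and 3.00 in WT. Among the unstressed groups, MS and 23 °C, only 14 of the 15 targets had enough reads to be tested. The remaining target was tested in the salt set only through its NaCl libraries. Its place in the count of 15 and in these medians is a description. COR15A, a chloroplast-protecting cold-regulated gene, rose by 5.61 ± 0.05 in exa1 and 5.41 ± 0.07 in WT, and RD29A, the classical dehydration reporter, by 4.94 ± 0.02 in exa1 and 4.57 ± 0.02 in WT. On MS 1 target was higher and 10 were lower in exa1 than in WT, with a median of -0.42. Of all genes tested, 2895 were higher and 3490 lower there. With NaCl 12 were higher and 2 lower, with a median of 0.25, while of all 21759 genes 4052 were higher and 3742 lower. The interaction called 12 of 15, all higher, against 2514 higher and 2092 lower of all genes, or 21.2% called. KIN1 was at 15.4 ± 0.397 CPM in exa1 and 28.9 ± 2.34 CPM in WT on MS, and at 378 ± 22.0 CPM in exa1 and 323 ± 11.2 CPM in WT with NaCl (SD, n = 3 each). COR413-IM1, a chloroplast membrane gene, was lower in exa1, by -1.14 ± 0.06 on MS and -0.28 ± 0.04 with NaCl. COR15A was higher in exa1, by 1.11 ± 0.08 on MS and 1.31 ± 0.03 with NaCl. KIN1 and KIN2, and COR15A and COR15B, are near copies of each other, and counts of such pairs are uncertain where reads fit both.

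Of 14 CBF targets tested in the heat set, 13 were higher at 39 °C than at 23 °C in both genotypes, against 36.3% of all genes in exa1 and 36.6% in WT. The median was 3.68 in exa1 and 3.29 in WT. In these libraries CBF1 and CBF2 had at most 6 reads, and CBF3 had 0 to 15, with the most at 39 °C. The part of the CBF genes in the rise of these targets was not tested. KIN1 differed by 5.85 ± 0.50 in exa1 and 6.47 ± 0.54 in WT, and COR15B by 5.14 ± 0.24 in exa1 and 5.73 ± 0.28 in WT. KIN1 had enough reads to be tested in the heat set only through its 39 °C libraries. Its calls there and its place in the count of 13 are a description. RD29A, COR47 and LEA14 are in the list of DREB2A targets too. At 23 °C against MS 2 were higher and 12 lower in both genotypes, against 33.8% of all genes lower in exa1 and 33.4% in WT. KIN1 was at -5.11 ± 0.39 in exa1 and -6.40 ± 0.43 in WT. In this comparison KIN1 had enough reads to be tested only through its MS libraries, so these calls are a description too.

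The 9 targets of DREB2A were all higher with NaCl, where 37.1% of all genes were in exa1 and 36.9% in WT, and all higher at 39 °C, where 36.3% were in exa1 and 36.6% in WT. LEA7 was at 96.3 ± 5.03 CPM in exa1 and 68.5 ± 0.232 CPM in WT with NaCl (SD, n = 3 each), against 0.082 CPM in exa1 and 0.268 CPM in WT on MS, where each genotype had a library at 0. Its log2 responses, 10.13 ± 0.79 in exa1 and 7.99 ± 0.44 in WT, rest on these levels near 0, and the interaction of genotype and NaCl was not called (edgeR, adjusted p = 0.0559). LEA7 had enough reads to be tested in the salt set only through its NaCl libraries. Its calls there and its place in the count of 9 are a description. HSP70-4 differed by 10.19 ± 0.13 in exa1 and 10.00 ± 0.12 in WT at 39 °C, and GOLS1, which makes galactinol, by 8.76 ± 0.08 in exa1 and 8.00 ± 0.08 in WT. On MS 7 of 9 were lower in exa1 and none was higher, against 3490 lower of all 21759 genes, although DREB2A itself did not pass the test there. With NaCl, where DREB2A was lower in exa1, 5 targets were higher and 2 lower, against 4052 higher and 3742 lower of all genes. HSFA3, the heat factor gene downstream of DREB2 proteins, was lower in exa1 on MS by -0.70 ± 0.11 (edgeR, adjusted p = 8.31e-09) and with NaCl by -0.47 ± 0.10 (adjusted p = 4.38e-05). At 39 °C GOLS1 was higher in exa1, at 3552 ± 105 CPM against 3020 ± 80.5 CPM in WT (SD, n = 3 each), and AT3G53990, a universal stress protein gene, was lower by -0.35 ± 0.09 (edgeR, adjusted p = 0.0135).

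**Figure D4:**
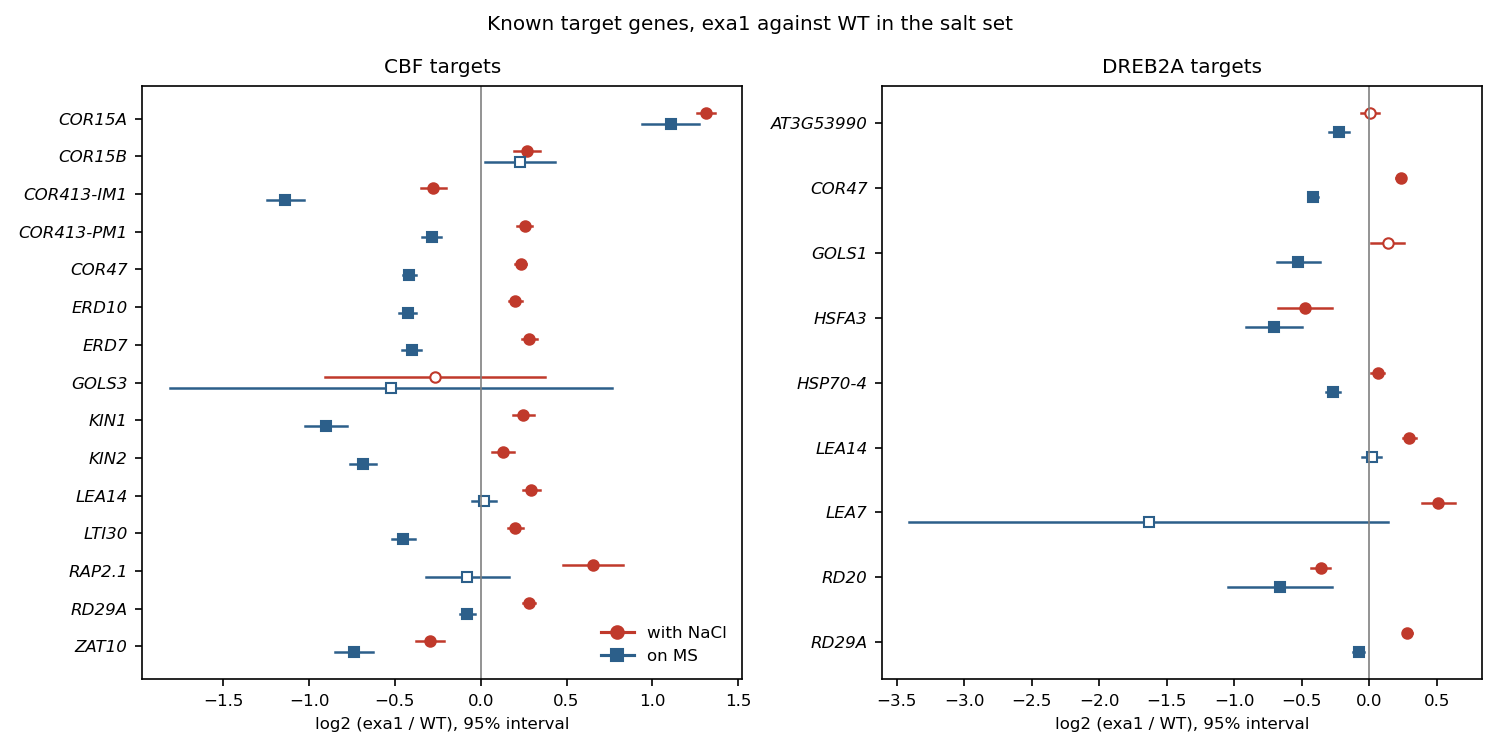
Log2 difference between exa1 and WT of 15 CBF targets (left) and 9 DREB2A targets (right), with NaCl (red circles) and on MS (blue squares), with 95% intervals and filled points for an adjusted p under 0.05. COR47, RD29A and LEA14 are in both lists. Most targets lie below 0 on MS and above 0 with NaCl.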

How the data were processed

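The 24 libraries were grouped by the genotype and treatment in their labels. The authors deposited whole-number read counts per gene, not normalised, and a table of FPKM values. Per the submitters' processing notes, HISAT2 2.0.4, HTSeq 0.6.1p1 and the TAIR10 genome were used. The strand setting of the counting is not stated in them. Coordinates and sequences came from the RefSeq TAIR10.1 assembly, matched by locus name.

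Counts were tested with edgeR 4.0.16 in R 4.3.3 (TMM scaling, low-count filter by group, robust quasi-likelihood fit, Benjamini-Hochberg adjustment over all genes tested, threshold 0.05). Each fit held 12 libraries: the salt set (21759 genes tested), the heat set (21196) or the unstressed groups (21529). The test was checked on simulated counts. Standard errors came from the fitted means and the quasi-likelihood variance, with none given where a group had no reads, and 95% intervals of log2 values from the normal distribution. Levels are the deposited FPKM, or CPM where stated. CPM of single genes, also in the correlations, were scaled by TMM over the 24 libraries, and marker sums by library totals. Alternatives were DESeq2 1.42.0, RLE size factors, limma 3.58.1 on log2(FPKM + 1), the counts without a filter, other sets of libraries, a replicate block, and leaving out each library. Library totals without TMM was added after seeing the data. Libraries of a group differed by more than sampling noise, with a chi-square per degree of freedom of 1.67 to 18.1. Depth limits the CBF and DDF genes, with 0 to 26 reads per library outside NaCl.

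The 9 genes and 7 lists (regulators of CBF genes, regulators of DREB2, CBF targets, DREB2A targets, other DREB genes, shoot markers, root markers) were chosen with earlier results of these data known. From each list, up to 4 called genes with the largest absolute log2 change were eligible to be named in a comparison, with their values in other comparisons. For each member with a mean of at least 1 CPM, the 3 genes with the highest correlation were named. The replicate numbers did not pair the libraries.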

Additional observations from a re-analysis of the deposited data

Results flagged for a closer look

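The salt response of 2 of 9 genes differed between the genotypes by the test of the difference itself, against 21.2% of all genes tested. For CBF1, the log2 response to NaCl was larger in exa1 than in WT by 1.99 ± 0.51 (edgeR, adjusted p = 0.000417), with 216, 150 and 176 reads with NaCl and 2, 2 and 10 reads on MS in exa1, against 141, 139 and 124 reads with NaCl and 16, 17 and 13 reads on MS in WT. For CBF2, it was larger by 1.57 ± 0.50 (edgeR, adjusted p = 0.00837), a call that was lost under 4 of 19 alternatives. With NaCl neither gene was called between the genotypes (edgeR, adjusted p = 0.0626 for CBF1 and 0.741 for CBF2). The genotypes differed on MS, at 2 to 26 reads per library. Shoot and root marker sums differed between the genotypes in the same libraries, and their part in these differences was not tested.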

How the results depend on the processing

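Of 1106 recomputed values of single genes, 1043 kept direction and call, 13 lost a call, 21 gained one and 29 changed sign. With limma on log2(FPKM + 1), the interaction with NaCl changed sign for DDF1 (-0.19) and DDF2 (-0.0047), and that with 39 °C for CBF3 (-0.034), and the cause was not tested. Leaving out each library gave sign changes in uncalled values: on MS from -1.24 to 1.11 for CBF3, -1.15 to 0.83 for CBF4 and -0.15 to 0.25 for DREB2B; with NaCl from -0.33 to 0.029 for DDF2; in the interaction with NaCl from -1.47 to 0.87 for CBF3, -0.19 to 1.78 for CBF4, -0.13 to 0.25 for DREB2B and -0.20 to 0.011 for DREB2C. The ranges were -0.14 to 0.091 for DREB2B at 23 °C, -1.14 to 0.075 for CBF3 and -0.38 to 0.077 for DREB2A at 39 °C, -0.25 to 0.20 for DREB2A and -0.16 to 0.070 for DREB2B in the interaction with 39 °C, and -0.27 to 0.13 for DREB2B at 23 °C against MS in WT.

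With all 24 libraries in 1 fit, the genes called between genotypes numbered 2760 on MS (6385 in the fit of the set), 4052 with NaCl (7794), 3924 at 23 °C (1598) and 5685 at 39 °C (3280), and in the interactions 1612 with NaCl (4606) and 2154 with 39 °C (347). With only the libraries compared, they numbered 3216 at 23 °C and 1854 at 39 °C. DESeq2 called 864 and limma 161 in the interaction with 39 °C. Leaving out each library gave 759 to 1319 at 23 °C, 1741 to 4505 at 39 °C and 85 to 1481 in the interaction with 39 °C.

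Of the 9 genes, the number called between genotypes with NaCl was 2, and 4 with library totals, 4 when fitted on the compared libraries alone and 1 with all 24 libraries. In the interaction with NaCl it was 2, and 1 with limma, 1 with all 24 libraries and 1 to 2 with a library left out. Between genotypes at 39 °C it was 0, and 0 to 1 with a library left out. At 23 °C against MS in exa1 it was 1, and 2 with DESeq2, 2 with limma, 2 with no filter, 3 with library totals, 4 with all 24 libraries and 1 to 3 with a library left out.

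The replicate numbers did not pair the libraries: same-numbered libraries' deviations correlated between -0.06 and 0.12, with 1 of 30 over 0.1, and 14 of 60 correlated best with their own number. The replicate block left all 75 member results with the same call and direction, and called 6283 genes on MS and 299 in the interaction with 39 °C. Depth limits CBF3, CBF4 and DDF2 outside NaCl most.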

Other observations

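Other DREB genes formed a list of 16, of which 13 were tested. With NaCl 10 were higher and 2 lower than on MS in both genotypes, with a median of 0.84 in exa1 and 0.61 in WT. Of all genes tested, 37.1% were higher in exa1 and 36.9% in WT. DREB2E, a further member of the DREB2 group, differed by 5.50 ± 0.31 in exa1 and 4.77 ± 0.29 in WT with NaCl, and by 6.03 ± 0.64 in exa1 and 4.56 ± 0.38 in WT at 39 °C. In the salt set DREB2E could be tested only through its NaCl libraries, and in the heat set only through those at 39 °C. These responses, and the place of DREB2E in the count of 10 with NaCl and in its medians, are therefore a description. Between genotypes with NaCl, 9 of the 13 were higher in exa1 and 1 was lower, with a median of 0.28 against 0.02 for all genes. Of all 21759 genes, 4052 were higher and 3742 lower. DEAR5 was higher in exa1 by 0.71 ± 0.04 (edgeR, adjusted p = 5.68e-37), RAP2.1, a DREB-type repressor that is in the list of CBF targets too, by 0.65 ± 0.09, and DREB2E by 0.57 ± 0.11. DREB26 was lower, by -0.52 ± 0.11 with NaCl and -1.56 ± 0.27 at 39 °C (edgeR, adjusted p = 0.00079). The members themselves counted none higher and 2 lower with NaCl.

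Over the 24 libraries, the genes whose log2 CPM ran most like that of DREB2A were UBQ10, with a Pearson correlation of 0.996, NF-YC2 at 0.994 and GSTU5 at 0.992. For DREB2B they were AT1G52560 at 0.995, TIL at 0.994 and AT5G54165 at 0.993, and for DREB2C VPS60.1 at 0.992, AT5G18400 at 0.988 and AT5G51440 at 0.988. For CBF1 they were ESL1 at 0.974, SPPL4 at 0.969 and AT5G02230 at 0.966, and for CBF2 JAZ10 at 0.947, GA2OX6 at 0.941 and AT4G39955 at 0.941. For DDF1 they were AT4G31860 at 0.986, ACS6 at 0.984 and AT5G02230 at 0.982. Libraries of a group share a treatment, so these values describe the 8 groups more than 24 separate points.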
